A study of Mus musculus with 12 samples.

Results

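The poly(A)-binding proteins of the mouse and their close partners, genes that encode the proteins bound to the poly(A) tail of mRNA, or that bind those proteins, were followed across the 12 libraries of the series. The genes were taken by symbol, 10 of the 55291 genes in the deposited count table. The cytoplasmic poly(A)-binding proteins were Pabpc1, Pabpc1l and Pabpc4, the nuclear ones Pabpn1 and Pabpn1l, the regulators that bind them Paip1, Paip2 and Paip2b, and the La-related proteins Larp4 and Larp4b. Pabpc1l and Pabpn1l are treated below as the oocyte-type forms, and Pabpc1 and Pabpn1 as the general forms.

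The study profiled poly(A) RNA by Smart-seq2, an oligo(dT)-primed full-length cDNA method, in mouse embryos carrying a maternal deletion of Pan2 (KO) and in wild-type embryos (WT). PAN2 is the nuclease of a deadenylase complex with PAN3 that is recruited to mRNA through poly(A)-binding protein and trims the tail. The 4 groups of 3 libraries each were WT zygotes and KO zygotes (PN3 in the labels), and WT and KO 2-cell embryos (L2C in the labels). The sources used here do not give the strain, the Cre line and its promoter, the father's genotype, the number of embryos per library or whether replicates came from separate females. The p-values therefore measure the spread between these 12 libraries, which may be technical.

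Cytoplasmic poly(A)-binding protein coats the tail, contacts the cap-bound initiation factor eIF4G and takes part both in translation and in the recruitment of deadenylases. The nuclear form binds the growing tail and helps set its length during polyadenylation. Mouse oocytes carry a stock of maternal mRNA whose use depends on tail length. Their main cytoplasmic form is PABPC1L (also called ePAB), while PABPN1L is known in the mouse as a factor of maternal mRNA clearance in the zygote. After fertilization the maternal mRNA is degraded and the embryo's own genes are switched on, in the mouse mainly at the 2-cell stage.

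Library totals ranged from 14453592 to 28624766 counts, and all 10 genes passed the low-count filter that kept 21160 genes for testing. Levels are given as counts per 1000000 counts (CPM) after TMM scaling, where 3 counts in a library correspond to 0.109 to 0.171 CPM. At PN3 Pan2 itself had 174 ± 14.6 CPM in the WT libraries and 4.26 ± 2.56 in the KO libraries, and at L2C 63.8 ± 4.72 and 22.5 ± 10.4 CPM (SD, n = 3 each), so reads on Pan2 were lower in the KO libraries at both stages. Replicate 2 at PN3 and replicate 3 at L2C stood apart in both genotypes. CT010467.1, an annotated rRNA gene, took 32.2% to 34.9% of counts in the former against 4.35% to 5.63% in the other PN3 libraries, and 24.0% to 34.0% in the latter against 12.7% to 13.9% in the other L2C libraries. Replicates 1 and 2 of each L2C group were much more alike than the other pairs, with a chi-square per degree of freedom of 3.33 in WT and 3.59 in KO against 16.2 to 627 elsewhere, so they may not be as independent as separate cultures. The 9 oocyte markers in the table summed to 11543 to 19679 CPM at PN3, and the 10 markers of 2-cell embryos to 766 to 1480 CPM in WT L2C. Markers of cumulus cells summed to 16.5 to 52.9 CPM and those of sperm to 4.39 to 19.9 CPM over the 12 libraries. Oligo(dT) priming requires a tail, so a change in RNA amount and a change in how well its tail is primed cannot be told apart, and neither can fewer embryos of a kind and less RNA per embryo.

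The sequences of the genes on which the results turn are shown first. Promoter windows run from 250 bases before to 50 bases after the RefSeq start, 300 bases in all (GRCm38.p6). They were read for 8 of the 10 genes, not for Pabpc1 and Paip2. The windows of the oocyte-type forms are shown because both genes fell between the stages in both genotypes, and that of Pabpn1 because it rose. Capitals mark CANNTG, the E-box core, a pattern that matches the same places on both strands, though a single site such as CAAATG need not read the same on both. It was picked after the windows had been read.
Pabpc1l, chr2:164024974-164025273, + strand: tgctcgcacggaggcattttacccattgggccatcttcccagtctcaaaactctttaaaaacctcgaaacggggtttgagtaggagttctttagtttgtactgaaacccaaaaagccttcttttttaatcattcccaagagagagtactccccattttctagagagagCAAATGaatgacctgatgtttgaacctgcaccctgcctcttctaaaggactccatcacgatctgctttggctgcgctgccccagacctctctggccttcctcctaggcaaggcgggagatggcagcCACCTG
Pabpn1l, chr8:122622686-122622985, - strand: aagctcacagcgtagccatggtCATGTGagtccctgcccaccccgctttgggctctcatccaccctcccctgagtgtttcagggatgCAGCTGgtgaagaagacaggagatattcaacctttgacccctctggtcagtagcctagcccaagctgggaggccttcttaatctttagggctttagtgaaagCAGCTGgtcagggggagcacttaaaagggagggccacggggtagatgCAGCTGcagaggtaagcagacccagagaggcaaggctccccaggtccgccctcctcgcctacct
Pabpn1, chr14:54893893-54894192, + strand: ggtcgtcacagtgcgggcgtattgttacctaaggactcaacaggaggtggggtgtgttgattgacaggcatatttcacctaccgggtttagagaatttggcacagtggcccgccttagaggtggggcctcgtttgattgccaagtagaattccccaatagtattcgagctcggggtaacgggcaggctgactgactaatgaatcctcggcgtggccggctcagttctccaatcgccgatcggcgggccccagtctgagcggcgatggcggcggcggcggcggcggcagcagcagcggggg
The Pabpn1l window holds 4 CANNTG, a number reached by 6.52% of the 27025 windows taken 1 per gene. The Pabpc1l window holds 2, a number reached by 39.6% of windows, and the Pabpn1 window holds none, while 72.1% of all windows hold at least 1. CpG dinucleotides numbered 7 in Pabpc1l and 5 in Pabpn1l, against a median of 7 over all windows. Pabpn1 had 25, which 18.4% of windows reach, and Pabpc4, the form that did not change between stages beyond the test's threshold, had 19, which 28.4% reach. A match is a description of these letters and shows no binding.

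To compare how the mRNAs end, the 30-base sites around the polyadenylation signal are shown for 4 annotated principal transcripts (GENCODE M21, mm10), with the hexamer in capitals.
Pabpc1, chr15:36595664-36595693, - strand: aattcttgctttAATAAAaattccttaaac
Pabpc4, chr4:123298794-123298823, + strand: tcaAATAAAggaAATAAAatctccataaat
Pabpc1l, chr2:164050505-164050534, + strand: tttgctttatatATTAAAaaatgctgcaaa
Pabpn1l, chr8:122619473-122619502, - strand: agaatgtaaattATTAAActtgaatatatt
Both oocyte-type forms end on the variant ATTAAA, and Pabpc1 and Pabpc4 on AATAAA. Among 21729 principal transcripts, read on the mRNA strand, 56.9% have AATAAA in their last 40 bases and 12.4% have ATTAAA without AATAAA. The principal transcript of Pabpn1 has neither there, as do 30.8% of transcripts. That transcript has 1030 bases, 113 of them 3′ UTR, against exons of 3035 bases, and other ends of the mRNA were not read.

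A further 3 sites of 30 bases show features for which the cytoplasmic forms are known. Pabpc1 mRNA starts with a 5′ terminal oligopyrimidine run, which places its translation under growth control in mammalian cells, and both Pabpc1 and Pabpc4 carry A-rich stretches in the 5′ UTR. In human and mouse PABPC1 such a stretch lets the protein bind its own mRNA. Capitals mark the pyrimidine run in the first line and the A bases in the others.
Pabpc1 start, chr15:36608944-36608973, - strand: CCCCTTCTCCCCggcggttagtgctgagag
Pabpc1 A-rich stretch, chr15:36608840-36608869, - strand: gAAAAAAcccAAAAAAAAtttAcAAAAAAA
Pabpc4 A-rich stretch, chr4:123282922-123282951, + strand: gAAAAAAAAAAgcAAAAgggAAAAAAAgAA
A start with C and a run of at least 12 pyrimidines occurs in 0.202% of principal transcripts. The A-rich stretches hold 22 and 23 A, and 0.887% of the 19395 transcripts with at least 30 bases of 5′ UTR hold a stretch with 22 or more.

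Pabpc1l fell and Pabpc1 rose between zygote and 2-cell embryo in both genotypes, and at L2C Pabpc1l was higher and Pabpc1 lower in KO than in WT. Pabpc1l (chromosome 2, 164025450 to 164050538, + strand, mm10, exons of 2724 bases) stood at 120.9, 125.5 and 115.7 CPM in the 3 WT PN3 libraries and at 124.5, 159.4 and 137.3 CPM in KO PN3. At L2C it stood at 9.07, 7.45 and 7.70 CPM in WT and at 20.2, 19.8 and 20.1 CPM in KO. Every L2C library was below every PN3 library, every KO L2C library was above every WT L2C library, and at PN3 the genotypes overlapped.

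**Figure D1:**
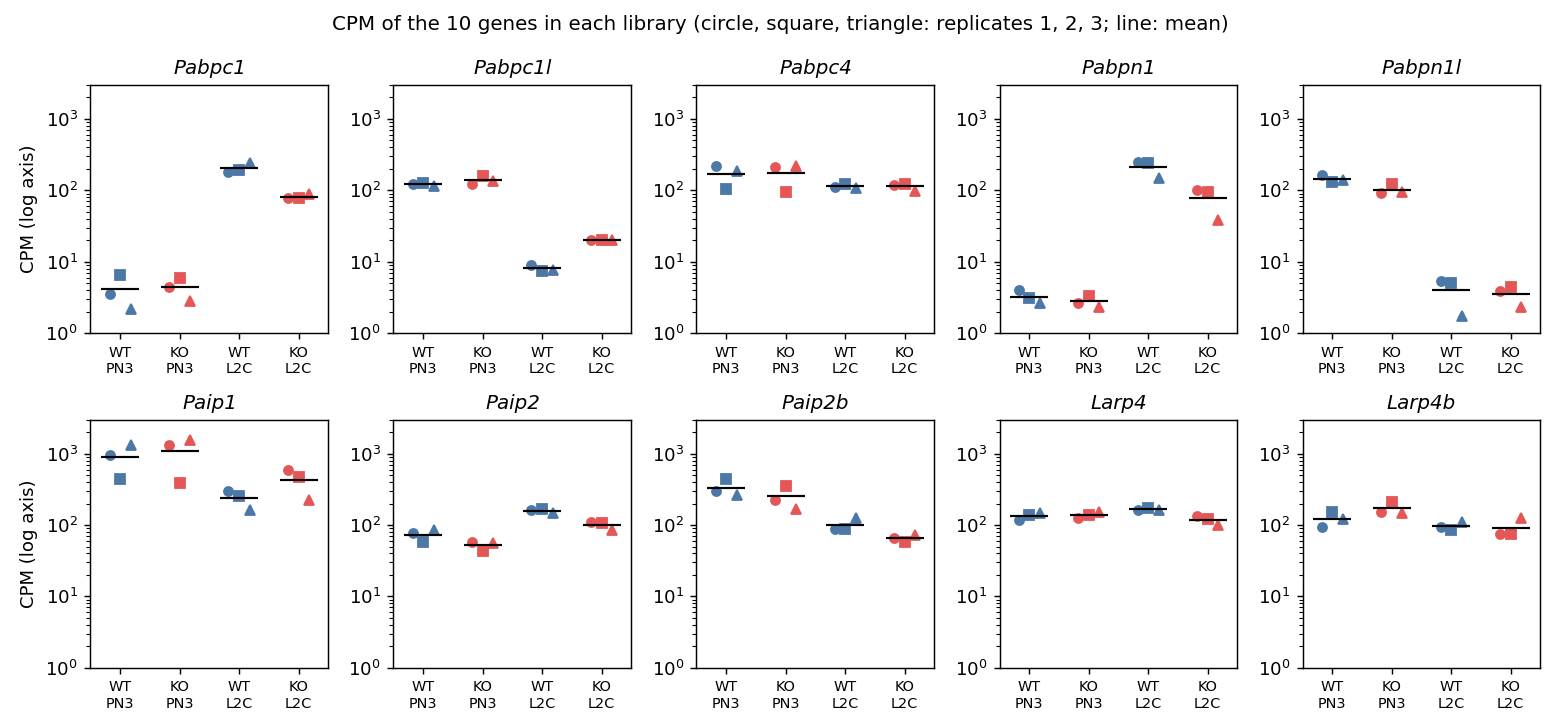
CPM of each of the 10 genes on a log axis in the 12 libraries, with WT in blue, KO in red, circles, squares and triangles for replicates 1, 2 and 3 and a line at each group's mean. Pabpc1l and Pabpn1l drop from PN3 to L2C, Pabpc1 and Pabpn1 climb, and at L2C the red points of Pabpc1l lie above the blue ones (means 20.0 and 8.07 CPM).

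Pabpc1l fell by 3.90 on the log2 scale between PN3 and L2C in WT (SE 0.20, edgeR adjusted p = 2.72e-08) and changed by -2.81 in KO (SE 0.19, adjusted p = 3.23e-07). At L2C it was 2.48-fold higher in KO, a log2 difference of 1.31 (SE 0.19, edgeR adjusted p = 0.00109), and at PN3 the difference was 0.22 (SE 0.18, adjusted p = 0.775). The interaction, here the L2C effect of the KO less its PN3 effect, was 1.09 (SE 0.26, edgeR adjusted p = 0.0309), so the difference between stages passed the test too. The call at L2C held when any 1 of the 6 libraries was left out (adjusted p between 0.00204 and 0.00935), whereas the interaction passed in 4 of the 12 such fits (adjusted p between 0.0209 and 0.0918). It did not pass with replicates 1 and 2 of each L2C group summed (adjusted p = 0.169), a fit in which 0 of all genes passed the interaction.

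Pabpc1, the main cytoplasmic form of somatic cells (chromosome 15, 36595661 to 36609668, - strand, exons of 6540 bases), moved the other way. It stood at 3.56, 6.56 and 2.19 CPM in WT PN3 and at 4.46, 6.0 and 2.86 CPM in KO PN3. At L2C it reached 182, 192 and 240 CPM in WT and 79.3, 77.8 and 88.6 CPM in KO. The stages did not overlap in either genotype, and at L2C the KO libraries were all below the WT libraries. Replicate 2, the one rich in CT010467.1, was the highest in both PN3 groups.
Pabpc1 rose by 5.65 on the log2 scale from PN3 to L2C in WT (SE 0.42, edgeR adjusted p = 2.72e-07) and by 4.21 in KO (SE 0.39, adjusted p = 2.56e-06). At L2C it was 2.50-fold lower in KO (log2 -1.32, SE 0.34, edgeR adjusted p = 0.0206). That call was lost when WT replicate 2, WT replicate 3, KO replicate 1 or KO replicate 2 was left out (adjusted p between 0.0553 and 0.0777, log2 between -1.35 and -1.13), and with replicates 1 and 2 of each L2C group summed (log2 -1.33, adjusted p = 0.151). The interaction was -1.44 (SE 0.49, edgeR adjusted p = 0.112), and with the replicate block -1.49 (adjusted p = 0.00106). Closely similar copies of Pabpc1 exist in the genome, and the sources used here do not say how reads matching several places were counted, so its level is uncertain to that extent.

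Pabpc4, also called inducible PABP (chromosome 4, 123262351 to 123298925, + strand, exons of 4027 bases), stood at 221, 103 and 188 CPM in WT PN3, at 213, 94.4 and 219 CPM in KO PN3, at 113, 123.2 and 109 CPM in WT L2C and at 117, 124.3 and 98.9 CPM in KO L2C. In both genotypes PN3 replicate 2 was the low library and overlapped the L2C range. Neither KO comparison passed (log2 0.04, SE 0.32, edgeR adjusted p = 1 at PN3; log2 -0.02, SE 0.32, adjusted p = 0.978 at L2C). The stage differences were -0.57 in WT (adjusted p = 0.139) and -0.63 in KO (adjusted p = 0.118), and without PN3 replicate 2 of the genotype they were -0.94 (adjusted p = 0.0191) and -0.93 (adjusted p = 0.0171). With the replicate block both also passed (log2 -0.50 and -0.54, adjusted p = 0.00254 and 0.00198).

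Set side by side per kilobase of exon, the 3 cytoplasmic genes summed to 87.4 ± 13.8 CPM per kilobase in WT PN3, 95.8 ± 11.6 in KO PN3, 62.8 ± 3.69 in WT L2C and 48.1 ± 2.35 in KO L2C (SD, n = 3 each). Pabpc1 made up 0.766% ± 0.538 of that sum in WT PN3 and 0.736% ± 0.349 in KO PN3. At L2C its share was 49.6% ± 4.78 in WT and 26.2% ± 3.20 in KO, with no overlap. Pabpc1l went from 51.7% ± 10.2 in WT PN3 to 4.75% ± 0.768 in WT L2C, and from 54.8% ± 13.7 to 15.3% ± 0.850 in KO. Pabpc4 held 45.6% ± 4.39 of the sum in WT L2C and 58.5% ± 4.03 in KO L2C. At L2C the lowest WT sum was 59.2 and the highest KO sum 50.05 CPM per kilobase, so the sums of the genotypes did not overlap. These values divide by the length of all annotated exons. The principal transcripts are shorter by unlike amounts, 2817 against 6540 bases for Pabpc1, 2354 against 2724 for Pabpc1l and 3019 against 4027 for Pabpc4. With those lengths Pabpc1 would weigh more. The sums, their difference between the stages and the shares thus depend on the length chosen, and were not computed with the shorter ones.

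**Figure D2:**
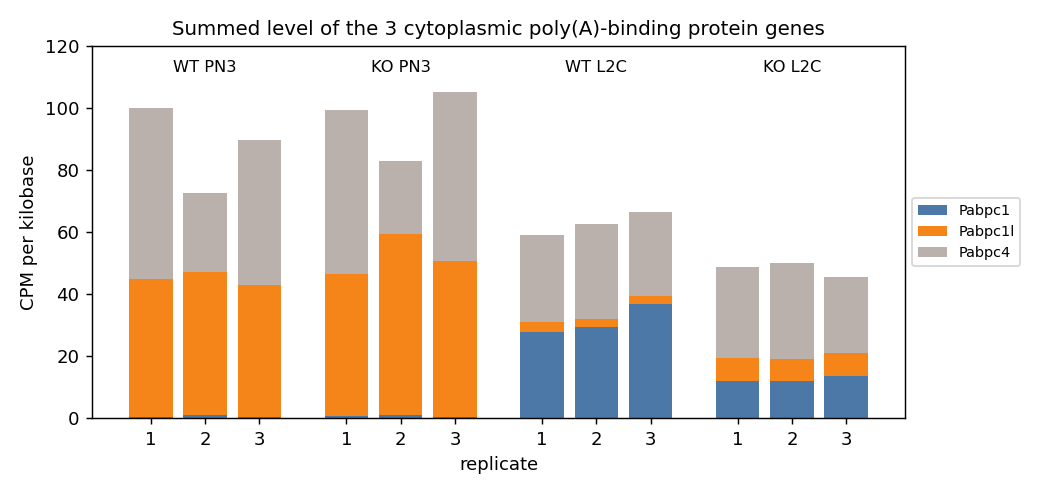
Stacked bars of the CPM per kilobase of exon of Pabpc1, Pabpc1l and Pabpc4 in each of the 12 libraries. Pabpc1 is barely visible at PN3, makes up 46.8% to 55.2% of the bar in WT L2C and 23.8% to 29.8% in KO L2C, and Pabpc1l keeps 14.5% to 16.2% of the bar in KO L2C.

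The nuclear forms also moved in opposite directions between stages, but in KO only the general form differed at L2C beyond the test's threshold. Pabpn1l (chromosome 8, 122619471 to 122622739, - strand, exons of 1193 bases) stood at 163, 129 and 139 CPM in WT PN3 and at 91.2, 121 and 94.6 CPM in KO PN3. At L2C it stood at 5.33, 5.04 and 1.76 CPM in WT and at 3.94, 4.36 and 2.31 CPM in KO. The stages lay far apart and the genotypes overlapped at L2C. At PN3 all 3 KO libraries were below all 3 WT libraries, which was so for 6.96% of the tested genes, and 12.9% of them had no overlap in either direction.
Pabpn1l fell by 5.15 on the log2 scale between the stages in WT (SE 0.41, edgeR adjusted p = 4.80e-07) and changed by -4.85 in KO (SE 0.41, adjusted p = 1.35e-06). The KO difference was -0.49 at PN3 (SE 0.34, adjusted p = 0.697) and -0.20 at L2C (SE 0.36, adjusted p = 0.75). Without the libraries rich in CT010467.1 the PN3 difference was -0.71 (edgeR adjusted p = 0.00296). The counts behind the L2C levels were 34 to 109 in WT and 46 to 81 in KO.

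Pabpn1 (chromosome 14, 54892500 to 54898169, + strand, exons of 3035 bases) stood at 4.04, 3.07 and 2.62 CPM in WT PN3 and at 2.68, 3.31 and 2.33 CPM in KO PN3. It reached 249, 245 and 149 CPM in WT L2C and 102, 93.8 and 38.9 CPM in KO L2C. Replicate 3, rich in CT010467.1, was the lowest of each L2C group, and the KO libraries all lay below the WT ones. Pabpn1 rose by 6.04 on the log2 scale in WT (SE 0.42, edgeR adjusted p = 1.75e-07) and by 4.82 in KO (SE 0.40, adjusted p = 1.25e-06).
At L2C Pabpn1 was 2.75-fold lower in KO (log2 -1.46, SE 0.34, edgeR adjusted p = 0.0127). The call was lost without WT replicate 1 or 2 (adjusted p = 0.0567 and 0.0556) and with replicates 1 and 2 summed (log2 -1.51, adjusted p = 0.105). The interaction was -1.23 (SE 0.49, edgeR adjusted p = 0.170), and with the replicate block -1.30 (adjusted p = 0.00703). The exons of Pabpn1 share 651 bases, 21.4% of their length, with the readthrough gene Gm20521 on the same strand. Gm20521 was listed at 0 in all 12 libraries, so the level of Pabpn1 per length is uncertain, while the bases that count are the same in every library.

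The ratio of the oocyte-type to the general form, taken within each library from counts per kilobase, does not depend on the scaling between libraries. Pabpc1l to Pabpc1 was 81.4, 45.9 and 127 in WT PN3 and 67.0, 63.8 and 115 in KO PN3. In WT L2C the order had turned, with Pabpc1 above Pabpc1l by 8.33, 10.7 and 13.0 times, and in KO L2C it was above by 1.64, 1.63 and 1.84 times. The L2C groups did not overlap and the PN3 groups did.
The mean log2 ratio of Pabpc1l to Pabpc1 was -3.39 ± 0.32 in WT L2C and -0.77 ± 0.10 in KO L2C (SD, n = 3 each), a difference of 2.63 or 6.18-fold (exact two-sided permutation p = 0.1). That is the smallest p that 3 libraries against 3 can give, so no ratio could pass 0.05. At PN3 the means were 6.29 ± 0.74 and 6.30 ± 0.47, a difference of 0.02 (exact permutation p = 1). Between the stages the log2 ratio changed by -9.68 in WT and -7.07 in KO (exact permutation p = 0.1 each).
Pabpn1l to Pabpn1 was 103, 107 and 135 in WT PN3 and 86.6, 93.2 and 103 in KO PN3. In L2C Pabpn1 was above Pabpn1l by 18.4, 19.1 and 33.4 times in WT and by 10.1, 8.45 and 6.63 times in KO. The mean log2 ratios at L2C were -4.51 ± 0.48 and -3.05 ± 0.31 (SD, n = 3 each), a difference of 1.46 or 2.74-fold (exact permutation p = 0.1), again without overlap. At PN3 the difference was -0.28 (exact permutation p = 0.2). In this pair the general form carried the L2C difference, since Pabpn1l itself overlapped between the genotypes there. With the lengths of the principal transcripts in place of all exons every log2 ratio shifts by a constant, -1.0 for the cytoplasmic and -1.5 for the nuclear pair, and no difference between groups changes.

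**Figure D3:**
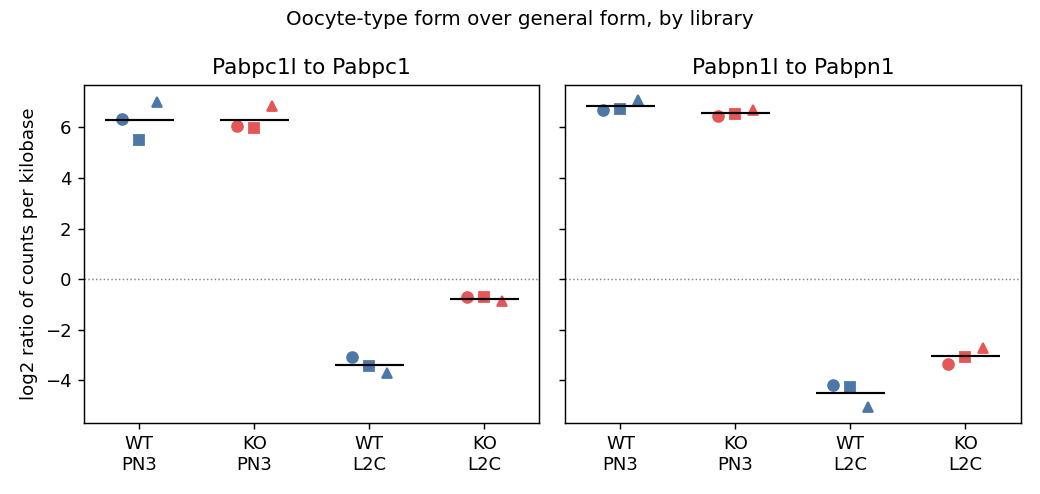
log2 ratio of counts per kilobase of the oocyte-type over the general form in each library, cytoplasmic pair on the left and nuclear pair on the right, with a line at each group's mean and a dotted line at equal levels. Both ratios are above 5.5 in every PN3 library and below 0 in every L2C library, and at L2C KO (red) lies above WT (blue) in both pairs.

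The regulators bound to PABP differed among themselves. Paip1, which stimulates translation with PABP and eIF4A (chromosome 13, 119428601 to 119458218, + strand, exons of 3456 bases), had the highest mean per kilobase of the 10 genes in both PN3 groups and in KO L2C. It stood at 974, 438 and 1309 CPM in WT PN3, at 1314, 388 and 1534 CPM in KO PN3, at 301, 255 and 161 CPM in WT L2C and at 593, 468 and 226 CPM in KO L2C. PN3 replicate 2 and L2C replicate 3 were the low libraries of both genotypes, as they were the ones rich in CT010467.1, and the genotypes overlapped at both stages.
Paip1 fell by 1.92 on the log2 scale between the stages in WT (SE 0.53, edgeR adjusted p = 0.00665) and changed by -1.33 in KO (SE 0.52, adjusted p = 0.0447). The KO fall was lost without KO PN3 replicate 1 or 3 or KO L2C replicate 2 or 3 (adjusted p between 0.0902 and 0.163), and with other scalings of edgeR (adjusted p between 0.0631 and 0.201). At L2C the KO difference was 0.84 (SE 0.51, edgeR adjusted p = 0.283). With the replicate block it was 0.78 (adjusted p = 0.00183), and each KO library was above the WT library of its number.

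Paip2 and Paip2b encode the inhibitors that pull PABP off the tail. Paip2 (chromosome 18, 35598617 to 35617187, + strand, exons of 3541 bases) stood at 77.6, 57.2 and 85.8 CPM in WT PN3, at 57.8, 43.0 and 55.4 CPM in KO PN3, at 162, 170 and 147 CPM in WT L2C and at 112.1, 107 and 85.1 CPM in KO L2C. The genotypes were separate at L2C and overlapped at PN3 only through WT replicate 2. Paip2 rose by 1.12 on the log2 scale in WT (SE 0.22, edgeR adjusted p = 0.000606) and by 0.96 in KO (SE 0.21, adjusted p = 0.00218). Its L2C difference was -0.65 (SE 0.21, edgeR adjusted p = 0.0519), just short of the threshold, and -0.66 with the replicate block (adjusted p = 0.00163).
Paip2b (chromosome 6, 83805401 to 83831741, - strand, exons of 6335 bases) stood at 300, 443 and 262 CPM in WT PN3, at 227, 358 and 170 CPM in KO PN3, at 87.8, 88.4 and 123.7 CPM in WT L2C and at 66.2, 58.6 and 72.0 CPM in KO L2C. The genotypes were separate at L2C and overlapped at PN3. Paip2b went opposite to Paip2 between the stages. In WT it fell by 1.74 (log2, SE 0.29, edgeR adjusted p = 0.000226) and changed by -1.94 in KO (SE 0.30, adjusted p = 0.000140). Its L2C difference was -0.61 (SE 0.29, edgeR adjusted p = 0.167), and -0.59 with the replicate block (adjusted p = 0.00331). Per kilobase Paip2b led Paip2 in every PN3 library, and Paip2 led in every L2C library.

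Larp4 and Larp4b bind poly(A) or A/U-rich RNA together with PABP, and LARP4 is known in human cells to lengthen tails. Larp4 (chromosome 15, 99970065 to 100016358, + strand, exons of 10843 bases) stood at 117, 138 and 147 CPM in WT PN3, at 127, 140 and 154 CPM in KO PN3, at 162, 174 and 164 CPM in WT L2C and at 133, 121 and 101 CPM in KO L2C. At L2C all KO libraries were below all WT libraries, and at PN3 they overlapped. The L2C difference was -0.49 (SE 0.18, edgeR adjusted p = 0.0840), and -0.50 with the replicate block (adjusted p = 0.00738). Larp4 passed in neither stage comparison (log2 0.31, adjusted p = 0.155 in WT and -0.25, adjusted p = 0.274 in KO), though in WT it passed with the replicate block (log2 0.32, adjusted p = 0.0272). A total of 204 of its exonic bases overlap 2310068J16Rik on the other strand.
Larp4b (chromosome 13, 9093881 to 9174451, + strand, exons of 8464 bases) stood at 92.8, 154 and 123.0 CPM in WT PN3, at 153, 212 and 149 CPM in KO PN3, at 95.2, 85.7 and 110 CPM in WT L2C and at 74.5, 75.2 and 125 CPM in KO L2C. The genotypes overlapped at both stages. It fell by 0.90 on the log2 scale between the stages in KO (SE 0.27, edgeR adjusted p = 0.0122), a call lost without KO L2C replicate 1 or 2 (adjusted p = 0.0620 and 0.0624). In WT its stage difference was -0.35 (SE 0.26, adjusted p = 0.265), and the interaction of -0.55 did not pass (adjusted p = 0.431).

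Counted together, none of the 10 genes passed between KO and WT at PN3, where 0.132% of all tested genes did by edgeR (0.0898% higher and 0.0425% lower), nor with the replicate block (2.67% of all genes). Simulated data held 100 genes changed 2-fold and 100 changed 4-fold. Of the 2-fold changes the test found few, 9 of 100 at PN3 and 5 of 100 at L2C. Many more genes passed in the L2C fit reported, so the L2C rate need not hold there. Not passing still does not show that a difference is absent. Of the 10, Paip2 had the lowest unadjusted p at PN3 (0.0363 by edgeR, adjusted p = 0.461). The share of all genes under that p was not computed. DESeq2 with adjustment also called 0. Without the libraries rich in CT010467.1, which leaves 2 libraries a group, 4 passed at PN3 (Pabpn1l, Paip2 and Paip2b lower, Larp4b higher), against 9.36% of all genes in that fit. At L2C 3 of 10 passed, Pabpc1l higher and Pabpc1 and Pabpn1 lower, against 17.0% of all genes (7.24% higher and 9.74% lower). With the replicate block 7 passed (Paip1 higher, and Paip2, Paip2b and Larp4 lower in addition), against 32.2% of all genes. The median log2 difference at L2C was -0.34 over the 10 genes and 0.02 over all tested genes. The interaction passed for Pabpc1l, 1 of 10 against 4.94% of all genes (1.85% higher and 3.09% lower), and with the block for Pabpc1, Pabpc1l, Pabpn1 and Larp4, against 17.8%.
Between the stages 7 of 10 passed in WT, with Pabpc1, Pabpn1 and Paip2 up and Pabpc1l, Pabpn1l, Paip1 and Paip2b down, against 61.6% of all genes (36.2% up and 25.4% down), and with the block 9 against 69.3%. In KO the same 7 and Larp4b passed, 8 of 10 against 53.6% of all genes (33.5% up and 20.1% down), and with the block 9 against 62.3%. The medians over the 10 genes were -0.46 in WT and -0.76 in KO, against 0.38 and 0.41 over all tested genes. In 6 of 10 genes the libraries of WT and KO did not overlap at L2C, against 43.6% of all genes. For the stages this held for 8 of 10 in WT and 7 of 10 in KO, against 70.3% and 59.8%. Shares this near to the background say nothing particular about the 10 genes as a set. The KO and WT stage comparisons share libraries with the KO comparisons, so their values are set side by side and not correlated.

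**Figure D4:**
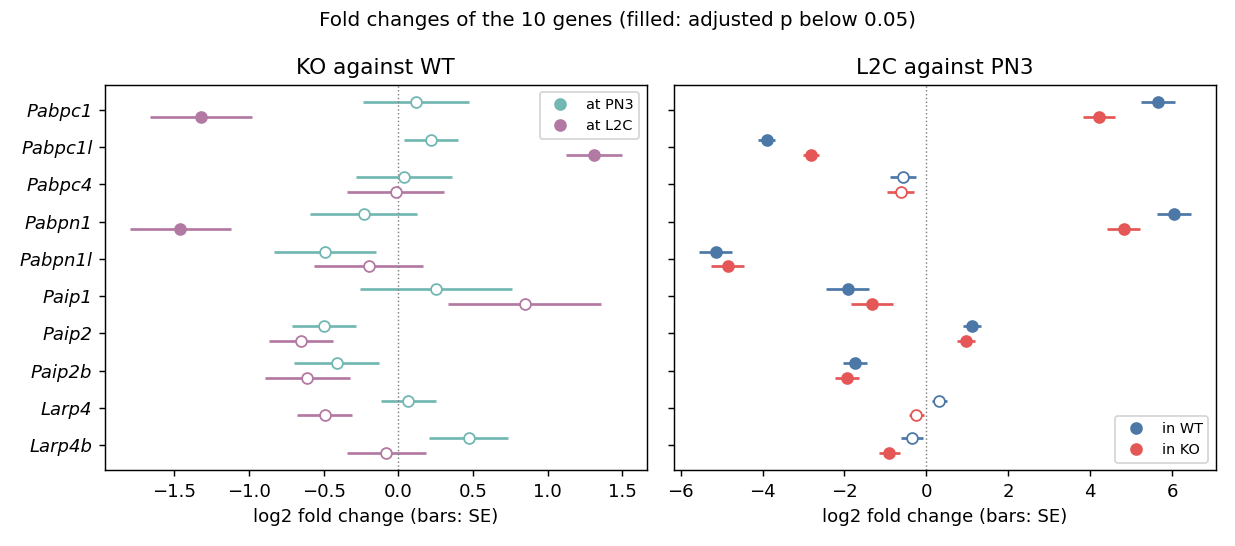
log2 fold changes of the 10 genes with bars of 1 SE, KO against WT on the left (teal at PN3, purple at L2C) and L2C against PN3 on the right (blue in WT, red in KO), filled where edgeR's adjusted p was below 0.05. On the left Pabpc1 (-1.32), Pabpc1l (1.31) and Pabpn1 (-1.46) are filled at L2C, and on the right the red points of Pabpc1, Pabpn1 and Pabpc1l lie nearer to 0 than the blue ones.

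Sums over marker lists differed between the L2C groups. Few single markers passed the test without the replicate block, where 17.0% of all genes did. With the block, where 32.2% of all genes passed, more of the oocyte and 2-cell markers did. Oocyte markers summed to 2506 to 3421 CPM in WT L2C and 4197 to 6360 CPM in KO L2C, none of the 9 at 0. Oosp1 and Bmp15 held most of that sum (1622 and 880 CPM in WT, 3009 and 1858 CPM in KO). By edgeR 1 of the 9 was higher (Npm2, adjusted p = 0.0248), 1 lower (Zp3, 85.0 CPM in WT and 33.9 in KO, adjusted p = 0.00122) and 7 were not called. With the replicate block 5 were higher and 1 lower. The 2-cell markers summed to 766 to 1480 CPM in WT and 278 to 874 CPM in KO, with 1 of the 10 at 0 in all libraries and 1 of 9 tested called, Tcstv3, which was lower. With the replicate block 8 of the 9 were lower and 0 higher. Cumulus markers summed to 16.5 to 22.8 and 26.6 to 37.9 CPM, where Foxl2 alone passed of 6 tested (1.68 CPM in WT, 16.0 in KO, edgeR adjusted p = 0.0283) and Kitl and Tnfaip6 had lower means in KO. Sperm markers summed to 4.39 to 6.25 and 7.97 to 11.04 CPM. Markers of oviduct, stroma and blood summed to 220 to 263 and 154 to 190 CPM, of which Epcam, an epithelial gene, held 153 and 83.0 CPM. Hba-a1 had 1065 to 1764 counts in WT L2C and 796 to 1276 in KO L2C. Col1a1 had 204 (WT) and 273 (KO) counts in PN3 replicate 2, against 0 to 4 in the other PN3 libraries. In KO L2C replicate 3 it had 185, against 2 and 6, while WT L2C replicate 3 had 8, against 45 and 33. What part these play in the differences of Pabpc1l, Pabpc1 and Pabpn1 was not tested.

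Per kilobase of all annotated exons the order of the 10 genes also turned between the stages. The order was not computed with the lengths of the principal transcripts. In WT PN3 the mean levels were 262 CPM per kilobase for Paip1, 121 for Pabpn1l, 52.9 for Paip2b, 44.3 for Pabpc1l and 42.5 for Pabpc4, followed by Paip2 (20.8), Larp4b (14.6), Larp4 (12.4), Pabpn1 (1.07) and Pabpc1 (0.627). Libraries of neighbours overlapped except at the steps from Pabpn1l to Paip2b, from Pabpc4 to Paip2 and from Larp4 to Pabpn1. In WT L2C the order was Pabpn1 (70.7), Paip1 (69.2), Paip2 (45.1), Pabpc1 (31.3), Pabpc4 (28.6), Paip2b (15.8), Larp4 (15.4), Larp4b (11.4), Pabpn1l (3.39) and Pabpc1l (2.96). There the steps without overlap followed Paip2, Pabpc4, Larp4 and Larp4b.
In KO L2C Paip1 stood at 124.2 CPM per kilobase, apart from Paip2 (28.7), Pabpc4 (28.2) and Pabpn1 (25.7), and Pabpc1 at 12.5 overlapped Larp4 (10.9) and Larp4b (10.8) but not Paip2b (10.4). Pabpc1l at 7.35 lay apart from both Paip2b above and Pabpn1l (2.96) below. The oocyte-type forms were thus the lowest of the 10 in both L2C groups and the general nuclear and cytoplasmic forms the lowest in both PN3 groups.

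Other members of the family were nearly silent. Pabpc5 and the pseudogene Pabpc1l2a-ps had 0 counts in every library, Pabpc2 had 2 counts in 1 library and Pabpc4l at most 4, while Pabpc6 had 1 to 29. Zc3h14, a nuclear zinc-finger protein that binds poly(A), was the only other one tested and stood at 64.3 ± 16.3, 61.4 ± 18.1, 84.0 ± 18.5 and 97.5 ± 36.4 CPM in WT PN3, KO PN3, WT L2C and KO L2C (SD, n = 3 each). Its L2C difference was 0.21 (SE 0.33, edgeR adjusted p = 0.70).

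Of 17 genes whose products contact PABP, 1 rose and 3 fell in KO at L2C, with a median of -0.44, against 17.0% of all genes called. With the replicate block 3 rose and 7 fell, against 32.2% of all genes. Nfx1, a PABP-binding transcription and mRNA regulator, fell by 1.61 on the log2 scale (20.8 ± 2.05 CPM in WT, 6.81 ± 1.24 in KO, edgeR adjusted p = 0.00113). Usp10 fell by 0.89 (adjusted p = 0.0137) and Gspt2, a release factor that binds PABP, by 0.92 (adjusted p = 0.0139). Pan3, the partner of PAN2 that binds PABP, rose from 296 ± 24.1 to 443 ± 65.7 CPM (log2 0.58, adjusted p = 0.0494), a call lost without any 1 of WT replicates 1, 2 and 3 or KO replicates 1 and 2. Usp10 lost its call without any of the same 5 libraries, and Gspt2 without WT replicate 1 or 2 or KO replicate 1.
Of 4 other La-related genes tested, Larp1b alone passed (17.0% of all genes did), with a log2 change of -1.08 (135 ± 26.0 CPM in WT, 63.8 ± 5.36 in KO, edgeR adjusted p = 0.0154, lost without any 1 of WT replicates 1, 2 and 3 or KO replicates 1 and 2). Larp1, which binds oligopyrimidine starts such as that of Pabpc1, stood at 48.0 ± 14.5 CPM in WT and 17.02 ± 16.3 in KO (log2 -1.49, adjusted p = 0.119), and passed with the replicate block (log2 -1.85, adjusted p = 0.00117) and without KO replicate 3 (log2 -2.65, adjusted p = 0.00978). Larp7 (log2 -0.25, adjusted p = 0.433) and Ssb (log2 -0.05, adjusted p = 0.949) did not.
Of 14 cap-binding and initiation genes of the closed loop between cap and tail, 1 passed, against 17.0% of all genes. With the replicate block 8 passed, 2 higher and 6 lower, against 32.2%. Eif4e2, a cap-binding repressor, fell by 1.14 (137 ± 28.8 CPM in WT, 62.2 ± 17.2 in KO, edgeR adjusted p = 0.00796, and 0.0515 without WT replicate 1). Eif4e1b, the oocyte form of the cap-binding protein, stood at 143 ± 40.9 and 225 ± 10.4 CPM (log2 0.65, adjusted p = 0.10, and 0.00621 with the block). Eif4e3 (log2 0.62, adjusted p = 0.117) and Eif4g2 (log2 -0.34, adjusted p = 0.217) did not pass, and both did with the block (adjusted p = 0.00223 and 0.0237).
Of 11 genes of deadenylation and maternal mRNA clearance, 3 rose and 2 fell, against 7.24% of all genes higher and 9.74% lower, and with the replicate block 4 rose and 2 fell. Cnot6l, a nuclease of the CCR4-NOT complex, rose by 1.33 (89.3 ± 6.30 CPM in WT, 224.5 ± 22.4 in KO, edgeR adjusted p = 0.00105). Btg4, the adaptor that links CCR4-NOT to maternal mRNA, rose by 1.69 (adjusted p = 0.0328), and Cnot1, its scaffold, fell by 0.77 (adjusted p = 0.0125). Both calls were lost without any 1 of WT replicates 1, 2 and 3 or KO replicates 1 and 2. Pan3 and the deleted Pan2 made up the rest. The L2C call of Pan2 (log2 -1.50, edgeR adjusted p = 0.0255) was also lost without any 1 of those 5 libraries (adjusted p between 0.0747 and 0.118), with upper quartile scaling (adjusted p = 0.0518) and with replicates 1 and 2 summed (adjusted p = 0.214).

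From the tested genes that averaged 10 CPM or more, the 10 members, mt- genes and symbols of the Gm-number or Rik kind were left out. Among the 7922 that remained, the genes whose log2 CPM followed the members most closely over the 12 libraries were ranked. For Pabpc1l they included Ppfibp2 (Pearson r = 0.996), Zfp866 (0.995) and Rab32 (0.995), all 3 with a higher mean in KO than in WT L2C, such as Ppfibp2 at 27.0 and 12.9 CPM. For Pabpn1l they included Rgs2 (0.992), Abcf3 (0.990) and Dnajc11 (0.989), of which Rgs2 went from 2073 CPM in WT PN3 to 35.8 in WT L2C and 44.9 in KO L2C. For Pabpc1 they were Mta2 (0.995), Cox7c (0.994), Pip5k1a (0.994) and Snapc2 (0.994), for example Cox7c at 4.11 CPM in WT PN3, 182 in WT L2C and 56.8 in KO L2C. These are descriptions over libraries that share 4 group means, so a high r mostly reflects the stages. The genes were picked for following the member over the same libraries. A like difference between KO and WT at L2C is thus partly built into the choice.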

How the data were processed

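Poly(A) RNA of WT and KO embryos was measured in 12 Smart-seq2 libraries, grouped by the labels. The authors deposited raw counts for each gene with no normalization, per the file headers and the values. The submitters' processing notes name Trim Galore 0.6.7, STAR 2.7.10a, featureCounts 2.0.2, DESeq2 and mm10. The sources used here do not give strand and multi-mapping settings. Counts were tested with edgeR 4.0.16 (limma 3.58.1, R 4.3.3): filterByExpr, TMM scaling, 1 mean per group over all 12 libraries, a robust quasi-likelihood test and Benjamini-Hochberg adjustment over 21160 genes (34131 left out), called under 0.05. No value was left out as missing. Ratios used counts per kilobase of the deposited exonic length and exact permutation tests (scipy 1.17.1). Likeness used log2 CPM with a prior count of 2.

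The named genes were the 10 members, the 4 most alike genes of 3 of them, up to 4 members of each of 5 pathway lists with the lowest adjusted p at L2C, and Pan2. Of the most alike genes, 1 for Pabpc1l and 1 for Pabpn1l are not reported here. Members and lists were chosen with earlier results of these data known. Alternatives were DESeq2 1.42.0, other scalings, no filter, only the groups compared, a replicate block, leaving out or summing libraries. Scripts were tested on simulated data, where edgeR called 9 of 100 true 2-fold changes between KO and WT at PN3 and 5 of 100 at L2C. Of 4-fold changes it called 75 of 100 and 71 of 100. No other gene was changed in the simulated data. In the fit reported 3593 of all genes passed at L2C, so the simulated L2C rates need not hold there. Same-numbered libraries deviated together from their group means within a stage (correlations across genes of 0.165, 0.455 and 0.274 at PN3 and 0.128, 0.15 and 0.221 at L2C), so the numbers were taken to pair them there, from the data and not the labels. Deviations from a mean of 3 libraries sum to 0. A number that stands apart in both genotypes, as PN3 replicate 2 and L2C replicate 3 do, therefore makes the other numbers correlate too. These correlations cannot show that the other numbers pair, and results with the replicate block rest on that pairing. The 3-count floors cover counting error only.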

Additional observations from a re-analysis of the deposited data

Results flagged for a closer look

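For 4 genes among the 10 members and the 5 pathway lists the KO effect differed between the stages by edgeR's test of the interaction. It is positive where the effect was higher at L2C. Of the cell type markers Zp3 alone passed it (-1.78, adjusted p = 0.00577), and the most alike genes were not looked up. Of all tested genes 4.94% passed it. Cnot6l and Nfx1 were named for a low adjusted p between KO and WT at L2C, a difference that enters the interaction, so their passing is not independent of that choice. Pabpc1l had an interaction of 1.09 (adjusted p = 0.0309), Cnot6l of 1.42 (adjusted p = 0.0109) and Nfx1 of -1.74 (adjusted p = 0.0109). Pan2 had 3.86 (adjusted p = 0.00615), being lower in KO at both stages but less so at L2C. With replicates 1 and 2 of each L2C group summed, adjusted p was 0.169 for Pabpc1l, 0.124 for Cnot6l, 0.104 for Nfx1 and 0.0698 for Pan2. In that fit 0 of all genes passed the interaction.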

How the results depend on the processing

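The number of genes called among the 10 changed with several settings. At L2C it was 3 in the fit reported, where 3593 of all genes passed. It was 5 by DESeq2 (5364 of all genes), 5 with DESeq2 size factors in edgeR (3685) and 7 with the replicate block (6815). Without the CT010467.1-rich libraries it was 7 (9797), in a fit that keeps only L2C replicates 1 and 2, the closely alike ones. With those 2 replicates summed it was 1, Pabpc1l (351 of all genes). It lay between 1 and 3 when 1 library was left out, and was 1 without WT L2C replicate 2, where 1427 of all genes passed. At PN3 it was 0 (28 of all genes), and 4 without the CT010467.1-rich libraries (2029 of all genes). For the interaction it was 1 (1046 of all genes), against 3 by DESeq2 (2741), 0 without the low-count filter (983) and 4 with the replicate block (3772). It was 5 without the CT010467.1-rich libraries (6057 of all genes). With L2C replicates 1 and 2 summed it was 0, and 0 of all genes passed. It was 0 to 2 when 1 library was left out, such as 0 without WT L2C replicate 2 (259 of all genes) and 2 without WT PN3 replicate 2 (1020). Between the stages it lay between 7 and 8 in WT and between 6 and 9 in KO when 1 library was left out. The counts of all genes in those stage fits are not given here, so these ranges say nothing particular about the 10 genes. The cause of these changes was not tested, beyond the smaller number of libraries where some were left out or summed. Among the 10 genes the replicate block changed no call beyond those given with them, and for 4 of the 5 pathway lists it raised the count at L2C.

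The log2 ratio of Pabpc1l to Pabpc1 between KO and WT at PN3, 0.02, turned to -0.21 without the CT010467.1-rich libraries and to -0.14 as the median of same-numbered differences with the replicate block, and lay between -0.36 and 0.37 when 1 library was left out. The other ratio differences kept their direction under every alternative run, and that of Pabpc1l to Pabpc1 at L2C lay between 2.48 and 2.80 when 1 library was left out.

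Changes of sign were found among differences near 0, none of them called in the fit reported. With upper quartile scaling Pabpc4 (0.19), Pabpn1l (0.017), Larp4b (0.13) and Ssb (0.16) turned at L2C, as did the interactions of Pabpc4 (0.18), Paip2 (0.079) and Paip2b (0.027). With library size alone Pabpc4 (0.031) and Ssb (0.019) turned at L2C, Larp4b (0.049) between the stages in WT, Larp4 (0.18) between the stages in KO, and the interaction of Pabpc4 (0.020). Without the low-count filter Pabpc4 turned at PN3 (-0.020), at L2C (0.016) and in its interaction (0.035). With only the groups compared in the fit Pabpc4 (0.076), Larp4b (0.025) and Ssb (0.038) turned at L2C. Without the CT010467.1-rich libraries Pabpc4 (0.095) and Ssb (0.050) turned at L2C, and the interactions of Pabpc4 (0.028), Paip2 (0.0022) and Paip2b (0.074). With L2C replicates 1 and 2 summed Pabpc4 at PN3 (-0.0028) and Larp4b at L2C (0.034) turned.

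When 1 library was left out, differences that changed sign lay between -0.17 and 0.55 for Pabpc1, -0.29 and 0.30 for Pabpc4, -0.15 and 0.61 for Paip1 and -0.033 and 0.14 for Larp4 at PN3. At L2C they lay between -0.035 and 0.072 for Pabpc4, -0.50 and 0.084 for Pabpn1l, -0.37 and 0.10 for Larp4b and -0.26 and 0.24 for Ssb. For the interaction they lay between -0.28 and 0.31 for Pabpc4, -0.23 and 0.10 for Paip2 and -0.37 and 0.19 for Paip2b.

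Scaling moved the median of all genes at L2C between KO and WT from 0.02 to 0.23 with upper quartile scaling, in the stage comparison of WT from 0.38 to 0.74 and of KO from 0.41 to 0.84 with library size alone, and in the interaction from 0.09 to 0.32 with upper quartile scaling. The calls of Pabpc1, Pabpc1l and Pabpn1 at L2C held under every scaling run. The alternatives for the pathway genes and the lengths of the principal transcripts were chosen after seeing the data. Low counts limit Pabpc1 and Pabpn1 at PN3 and Pabpn1l at L2C.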
